A study of Mus musculus with 16 samples.

Results

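The ADAM sheddases described here are 8 genes, Adam8, Adam9, Adam10, Adam12, Adam15, Adam17, Adam19 and Adam33, taken by symbol from a table of 49568 genes. Adam8 was chosen by its measured level and fold change in injured against uninjured MRL tendon, so its values in that strain are a description and carry no test. The other 7 members were taken as further ADAM genes known as sheddases, with earlier results of these data known.

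The study sequenced RNA from flexor tendon, taken at the injury site with its sheath and adjoining tissue left on, of C57BL/6J (C57) mice and of MRL/MpJ (MRL) mice, a strain used as a model of mammalian regeneration. There were 16 libraries in 4 groups of 4, namely uninjured C57, C57 at 7 days post-injury (dpi), uninjured MRL and MRL at 7 dpi. All animals were males of 9 to 11 weeks without a transgene, and the injury was a cut across about 50% of the deep digital flexor tendon of a hind paw digit. The comparisons asked which genes changed with injury in each strain and where the strains differed.

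ADAM proteins are membrane-anchored metalloproteinases that carry a disintegrin domain. They cut the outer part of other membrane proteins near the cell surface, a step called shedding, which releases growth factors and cytokines and removes receptors and adhesion molecules. They are made with an inhibitory prodomain that furin-type convertases remove, they travel to the surface with partner proteins such as iRhoms and tetraspanins, and they are held in check by some of the tissue inhibitors of metalloproteinases (TIMPs). In healing tissue they are known for releasing EGF receptor ligands and TNF, for activating Notch, and for letting leukocytes detach and migrate.

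Library totals lay between 12552424 and 23741648 counts (median 15520024.5), and the injured MRL libraries were the deepest. Levels are given as CPM, the count divided by the TMM-adjusted library size and multiplied by 1000000. A count of 0 allows up to 3 counts, which was 0.126 to 0.241 CPM depending on the library, and this limit covers counting error only. All 8 tenocyte markers were counted in every library and together took 1.44% to 6.95% of the counts. The 6 fibroblast markers took 1.73% to 5.72%. In C57, uninjured replicate 4 held 7.47% of its counts in epidermal markers and injured replicates 1 and 2 held 7.34% and 0.232% in skeletal muscle markers. Uninjured C57 replicate 4 also stood apart in its Spearman correlation with its own group (0.8 to 0.83). In such bulk tissue, fewer cells of a type and less RNA per cell cannot be told apart.

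Adam8 and Adam12 share a chromosome and the other members lie on separate ones. In GRCm38, Adam8 (ENSMUSG00000025473.16) is at chr7:139978932-139992562 on the minus strand and Adam12 (ENSMUSG00000054555.11) at chr7:133883199-134232146 on the minus strand. Adam19 (ENSMUSG00000011256.16) is at chr11:46055992-46147343 on the plus strand and Adam33 (ENSMUSG00000027318.17) at chr2:131050591-131063814 on the minus strand. Adam9 (ENSMUSG00000031555.15) is at chr8:24949611-25016927 on the minus strand and Adam15 (ENSMUSG00000028041.17) at chr3:89338542-89349996 on the minus strand. Adam10 (ENSMUSG00000054693.14) is at chr9:70678997-70780229 on the plus strand and Adam17 (ENSMUSG00000052593.16) at chr12:21323509-21373632 on the minus strand. Exons of 4 members overlap exons of a gene on the opposite strand, over 1263 bases for Adam15 with 4731419I09Rik, 311 bases for Adam17 with Iah1, 46 bases for Adam8 with Gm16201, and 587 and 480 bases for Adam19 with Gm16033 and Gm16034. The strand setting of the counting is not given in the sources used here, so reads in those stretches could belong to either gene.

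RefSeq start sites (GRCm38.p6) were matched for Adam8, Adam10, Adam15, Adam17 and Adam19, and the 250 bases before the start are shown for a pair that lay higher in all injured than in all uninjured libraries (Adam8 and Adam19) and for a pair of widely expressed sheddases not called in either strain (Adam10 and Adam17). Each is printed 5′ to 3′ on the strand of the gene, and capitals mark CpG dinucleotides. The Adam8 window is chr7:139992563-139992812, the Adam19 window chr11:46055734-46055983 (the RefSeq start nearest to the gene start, of 3), the Adam10 window chr9:70678732-70678981 and the Adam17 window chr12:21373633-21373882.
Adam8: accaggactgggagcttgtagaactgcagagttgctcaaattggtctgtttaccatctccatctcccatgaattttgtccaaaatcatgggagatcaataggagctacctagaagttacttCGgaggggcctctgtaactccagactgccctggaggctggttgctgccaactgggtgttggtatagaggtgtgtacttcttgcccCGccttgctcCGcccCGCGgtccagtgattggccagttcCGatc
Adam19: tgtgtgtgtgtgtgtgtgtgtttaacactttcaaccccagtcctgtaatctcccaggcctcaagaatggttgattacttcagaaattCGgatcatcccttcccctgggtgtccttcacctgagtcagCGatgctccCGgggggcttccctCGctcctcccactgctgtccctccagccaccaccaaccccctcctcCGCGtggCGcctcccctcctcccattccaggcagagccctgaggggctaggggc
Adam10: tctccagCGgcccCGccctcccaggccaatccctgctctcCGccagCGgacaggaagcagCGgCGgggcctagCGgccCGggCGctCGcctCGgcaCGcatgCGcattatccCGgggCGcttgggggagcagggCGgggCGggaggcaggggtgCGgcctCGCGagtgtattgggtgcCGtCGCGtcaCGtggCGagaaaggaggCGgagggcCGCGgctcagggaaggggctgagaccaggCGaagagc
Adam17: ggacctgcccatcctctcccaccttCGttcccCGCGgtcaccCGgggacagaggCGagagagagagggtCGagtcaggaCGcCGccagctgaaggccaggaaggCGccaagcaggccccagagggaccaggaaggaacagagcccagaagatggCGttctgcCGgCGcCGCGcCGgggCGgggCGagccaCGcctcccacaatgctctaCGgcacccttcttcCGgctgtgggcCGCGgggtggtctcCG
The windows of Adam8 and Adam19 held 6 and 7 CpG dinucleotides, near the median of 6 over 32841 RefSeq windows of the same length. Those of Adam10 and Adam17 held 29 and 23, more than in 93.2% and 86.7% of all windows, and that of Adam15 held 18. The letters TGANTCA (the AP-1 motif, read on both strands) occurred in the Adam19 window, at position -131 from the start, and in none of the other 4 windows, against 6.75% of all windows. The letters GGGCGG (the GC box, both strands) occurred 3 times for Adam10 and once each for Adam8, Adam15 and Adam17, and 32.7% of all windows held them. These are descriptions of the sequence, and no measurement of binding was made.

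Before injury the tendons of both strains carried mostly Adam15, Adam9, Adam10 and Adam17. Compared per kilobase of exon, the level of Adam15, a disintegrin known from endothelium and other adherent cells, was 15.7 ± 2.83 CPM per kilobase (SD, n = 4) in uninjured C57 and 15.8 ± 2.25 in uninjured MRL. Adam9, a widely expressed sheddase, followed at 14.3 ± 5.54 and 14.5 ± 3.13 CPM per kilobase. Adam10, the main Notch-cleaving sheddase, was at 9.61 ± 2.54 and 11.3 ± 2.69, and Adam17, the TNF-converting enzyme, at 9.58 ± 1.87 and 10.4 ± 1.39. Within these 4 genes each neighbour overlapped the next in its range over libraries. The gap below them was wider than the spread, since every library of Adam17 exceeded every library of Adam33 by at least 6.08 CPM per kilobase in C57 and 6.84 in MRL. Adam33, Adam19, Adam8 and Adam12 were all below 2 CPM per kilobase on average and overlapped with their neighbours. With coding length in place of exon length the order within the upper 4 changed, with Adam17 second in both strains, and the lower 4 kept their places.

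The make-up of injured libraries differed from that of uninjured ones in both strains, given as a description since Adam8 was chosen for its rise. Adam8, Adam12, Adam19 and Adam33 together made up 4.17% to 8.57% of the summed level per kilobase of the 8 genes in uninjured C57 libraries and 17.9% to 25.1% in injured ones. In MRL the same share was 3.19% to 4.34% before and 16% to 24.9% after injury. The share of Adam10 and Adam17 together was 32.6% to 42.3% in uninjured and 20.2% to 31.9% in injured C57 libraries, and 38.5% to 41.2% and 26.2% to 35.5% in MRL. The summed level itself was 52 ± 5.93 CPM per kilobase (SD, n = 4) in uninjured and 93.2 ± 26.2 in injured C57, and 54 ± 9.17 and 80 ± 6.61 in MRL. After injury Adam8 held 6.6% ± 2.77 of the sum in injured C57 and 11.8% ± 1.94 in injured MRL, while Adam33 held 8.26% ± 4.01 and 0.921% ± 0.986.

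**Figure D1:**
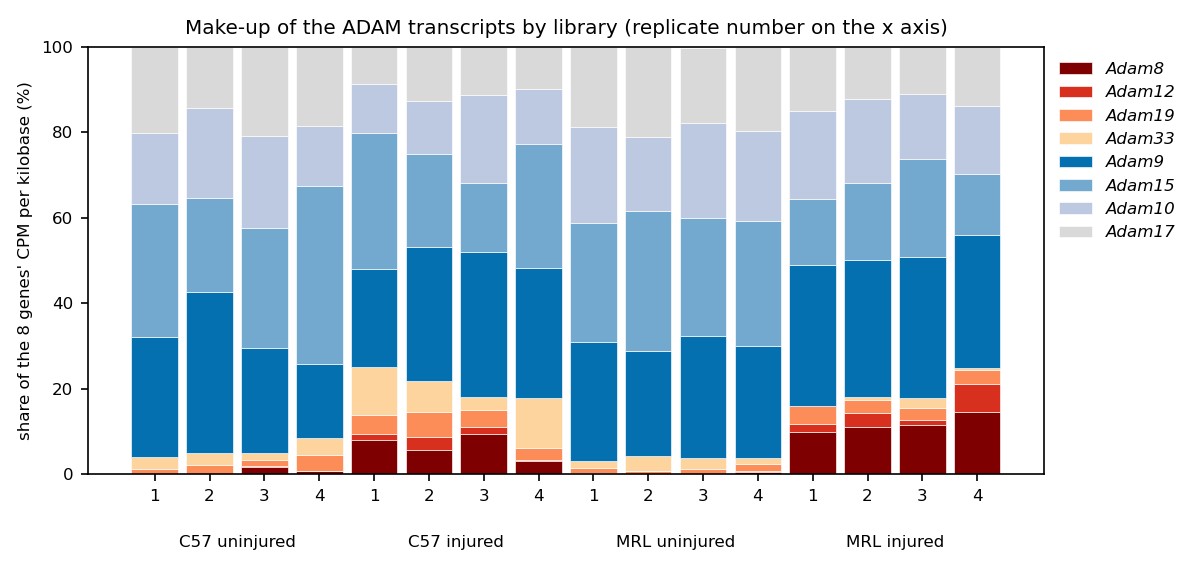
Stacked bars show, for each of the 16 libraries, the percentage that each gene takes of the summed CPM per kilobase of the 8 ADAM genes, with libraries ordered by group and numbered by replicate. The red to cream segments at the base (Adam8, Adam12, Adam19, Adam33) reach at most 8.57% in uninjured and at least 16% in injured libraries, and the cream Adam33 segment takes 7.18% or more in injured C57 replicates 1, 2 and 4 and at most 4.05% in the other 13 libraries, injured C57 replicate 3 (3.04%) included.

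A gene was called at a Benjamini-Hochberg adjusted p under 0.05 over all genes tested and an absolute log2 fold change over 1, in edgeR's quasi-likelihood test. In C57, 1 of 8 members was called with injury, Adam33, against 1.07% of the 14424 genes tested (0.908% higher and 0.166% lower). All 8 had a positive log2 fold change, with a median of 1.41 against -0.05 over all genes, and 5 of 8 had an unadjusted p under 0.05, as had 2204 of all 14424 genes. With DESeq2 in place of edgeR, 4 of 8 were called (Adam8, Adam12, Adam19 and Adam33), and DESeq2 also called 909 genes in all where edgeR called 155. In MRL, 2 of the 7 members tested were called, Adam12 and Adam19, against 7.41% of 14274 genes (5.25% higher and 2.15% lower). There 5 of 7 log2 fold changes were positive, with a median of 0.36 against -0.03 over all genes. No member fell past the criteria in either strain. With 1 library left out the C57 count was 2 without uninjured replicate 4, 1 without injured replicate 3 and 0 in the other 6 fits, and the MRL count was 2 in all 8 fits. The groups did not overlap, with injured higher, for 5 of 8 members in C57 (7.2% of all 15947 genes kept over the 16 libraries) and for 3 of 7 in MRL (12.4% of genes), Adam8 left out there because it was chosen on that contrast.

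**Figure D2:**
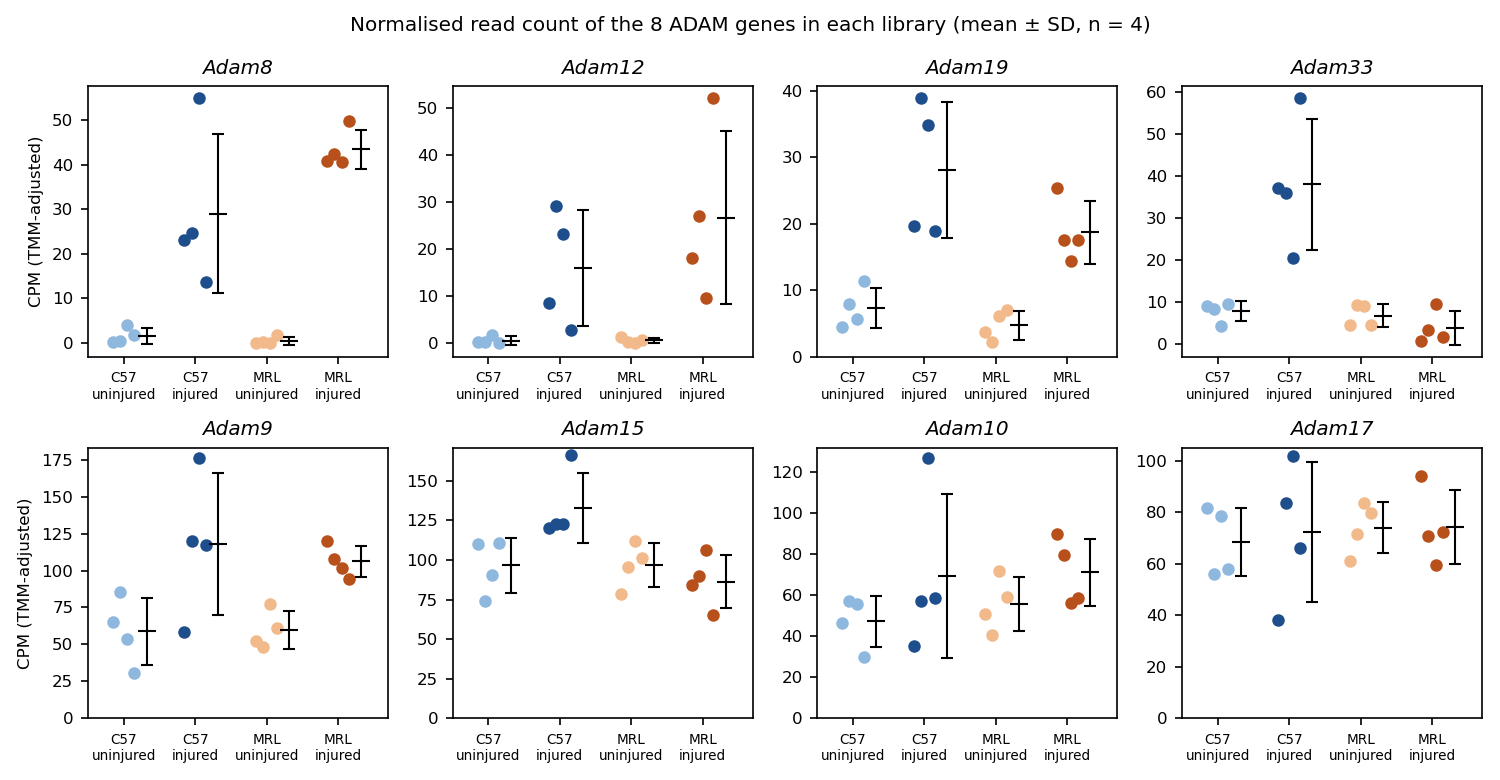
Each panel plots the CPM of 1 gene in the 16 libraries (points, by group) with the mean and SD of the 4 libraries beside them, on axes of their own scale. Adam8, Adam12 and Adam19 lie higher in the injured groups of both strains, Adam33 lies at 20.6 CPM or more only in injured C57, and Adam17 overlaps in all groups.

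Adam8 is a sheddase of leukocytes that is known to cut the selectin ligand PSGL-1 and to be raised in inflammation. In uninjured C57 it was at 0.201, 0.389, 4.01 and 1.72 CPM, and in injured C57 at 23.1, 24.6, 54.9 and 13.6. In uninjured MRL it was at 0, 0.144, 0.0597 and 1.69 CPM, and in injured MRL at 40.8, 42.4, 40.7 and 49.9. Every injured library was above every uninjured one in both strains, and the 4 injured MRL libraries lay within 40.7 to 49.9 CPM whereas those of injured C57 were spread from 13.6 to 54.9. The test in C57 gave a log2 fold change of 4.15 ± 0.91 (SE, n = 4 per group) and an edgeR adjusted p of 0.0665, short of the threshold. The adjusted p ranged from 1.84e-05 (DESeq2) to 0.178 over 12 alternative settings, and only DESeq2 made the call. In MRL, where the gene was chosen, the log2 fold change was 6.62 ± 0.86 as a description, and 9.24 without uninjured replicate 4, the library with 21 of the 24 Adam8 counts in that group. After injury the strains overlapped, with a log2 difference of 0.55 ± 0.36 between MRL and C57.

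Myeloid markers, like Adam8, were higher in the injured groups of both strains. Over the 16 libraries the r of the log2 level of Adam8 with that of the myeloid markers was 0.86, and 0.01 on deviations from the group means. With neutrophil markers it was 0.53, and 0.71 on deviations. It was 0.86 for dividing-cell, 0.85 for T and B cell and 0.76 for osteoclast markers, and 0.21, 0.05 and -0.16 on deviations. The summed CPM of 10 myeloid markers was 690 to 1480 in uninjured and 4250 to 7710 in injured C57, and 850 to 1420 and 3660 to 6600 in MRL, and 6 of the 10 were called higher in C57 (0.908% of all genes) and 9 of 10 in MRL (5.25% of all genes). The 8 neutrophil markers summed to 0.873, 0.453, 141 and 19.2 CPM in uninjured C57 replicates 1 to 4 and 3.6 to 7.15 in injured C57, and to 0.0663 to 2.73 and 3.92 to 28.2 in MRL, with Ly6g at 0 in all injured libraries. The uninjured C57 library with 141 CPM of them was above every injured library and had the highest Adam8 level of its group (4.01 CPM). Adam8 per 1000 CPM of myeloid markers was 0.158 to 2.72 in uninjured and 2.14 to 7.12 in injured C57, and 0 to 1.56 and 6.25 to 11.6 in MRL. In C57 these ratios overlapped. Per 1000 CPM of osteoclast markers Adam8 was 1.06 to 18.8 in uninjured and 24.1 to 124 in injured C57, without overlap, and 0 to 10.1 and 73.1 to 97.5 in MRL. The MRL ratios, and in part the r values, rest on the values that chose the gene and are a description. The part of these cells in the Adam8 values was not tested further.

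Over the 16 libraries, the 5 genes whose log2 CPM was most like that of Adam8 among 15946 others were Coro1a, a leukocyte actin-binding coronin (r = 0.95), the cytokinesis gene Anln (r = 0.94), Basp1, the mitotic kinesin Kif2c and I830077J02Rik (r = 0.93 each). The 16 points share the 4 groups. On deviations from the group means the r of Coro1a was 0.52 and that of Anln 0.77. Coro1a had a median of 22.7 CPM in uninjured and 88.2 in injured C57, and of 14.8 and 82.6 in MRL. Anln and Kif2c are genes of dividing cells, and the 6 markers of proliferating cells were called higher in MRL in 6 of 6 cases (5.25% of all genes) and in C57 in 0 of 6 (0.908% of all genes), where all 6 log2 fold changes were positive. The edgeR interaction test called 0 of the 6, so a difference between the strains was not shown. Uninjured C57 replicate 4, the library with epidermal markers, held 193 CPM of these markers against 6.61 to 9.47 in the other 3 libraries of its group.

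Adam12 (meltrin alpha), a sheddase of regenerating muscle and activated mesenchymal cells, was nearly absent before injury. Its level in uninjured C57 was 0.0672, 0.13, 1.77 and 0 CPM and in injured C57 8.52, 29.2, 23.1 and 2.77. In uninjured MRL it was at 0 to 1.19 CPM and in injured MRL at 18.1, 27.1, 9.48 and 52.1. The groups did not overlap in either strain. In MRL the rise was a log2 fold change of 5.76 ± 0.88 (SE, n = 4 per group, edgeR adjusted p = 0.00407), and the call held in all 12 alternatives with adjusted p from 7.00e-12 to 0.0176. In C57 the log2 fold change was 4.98 ± 1.35 with an edgeR adjusted p of 0.134 (0.000581 to 0.337 over 12 alternatives, past the threshold only with DESeq2), and 7.71 without uninjured replicate 3, which held 23 of the 26 counts of its group. The difference between these responses was not past the threshold, at 0.7 ± 1.58 on the log2 scale with an adjusted p of 0.906 in the edgeR interaction test. Skeletal muscle markers summed to 6.48 to 13.8 CPM in injured MRL, and to 73000, 2160, 8.56 and 10.4 CPM in injured C57 replicates 1 to 4, of which replicate 2 had the highest Adam12 level of its group. The summed markers of osteoclasts were at 168 to 210 CPM in uninjured and 435 to 683 in injured MRL (3 of 5 tested called higher, against 5.25% of all genes) and those of dividing cells at 3.78 to 10.2 and 171 to 681. The r of log2 levels with Adam12 over the 16 libraries was 0.87 for myeloid, 0.87 for T and B cell, 0.86 for osteoclast and 0.77 for dividing-cell markers, and 0.23, 0.18, 0.32 and 0.03 on deviations from the group means, and the part of any of these cells in the Adam12 values was not tested.

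The genes most like Adam12 over the 16 libraries were the thrombin receptor family gene F2rl2, A530064D06Rik, the monocyte chemokine Ccl12 and Lrr1 (r = 0.93 each) and the myeloid membrane gene Ms4a4c (r = 0.92). On deviations from group means F2rl2 kept r = 0.76. F2rl2 was at a median of 0.129 CPM in uninjured and 2.39 in injured C57, and at 0 and 9 in MRL, and Ccl12 at 0.227 and 8.96, and 0.199 and 29.6.

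Adam19 (meltrin beta), a sheddase of neuregulins in the heart and nervous system, was higher after injury in all libraries of both strains and was called in MRL. Uninjured C57 libraries were at 4.5, 7.9, 5.63 and 11.4 CPM and injured ones at 19.7, 38.9, 34.8 and 19. Uninjured MRL libraries were at 3.78, 2.16, 6.09 and 6.99 CPM and injured ones at 25.4, 17.6, 14.4 and 17.5. All injured libraries were above all uninjured libraries of either strain. The log2 fold change was 1.98 ± 0.40 in MRL (n = 4 per group, edgeR adjusted p = 0.0122), called in all 12 alternatives. In C57 it was 1.88 ± 0.39 with an edgeR adjusted p of 0.0603 (0.00028 to 0.193 over 12 alternatives). Without the C57 uninjured replicate 4 that carried epidermal markers it was 2.19 ± 0.35 and called (edgeR adjusted p = 0.0108). The interaction was 0.05 ± 0.55 on the log2 scale. Adam19 per 1000 CPM of myeloid markers had medians of 4.63 before and 4.58 after injury in C57. In MRL they were 4.5 and 3.54, and the ranges overlapped in both strains (3.54 to 16.5 in uninjured C57). Over the 16 libraries its r of log2 levels with myeloid markers was 0.83, and -0.06 on deviations from the group means. With T and B cell markers it was 0.81 and 0.15, and with dividing-cell markers 0.83 and 0.48. The part of these cells in the Adam19 values was not tested.

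**Figure D3:**
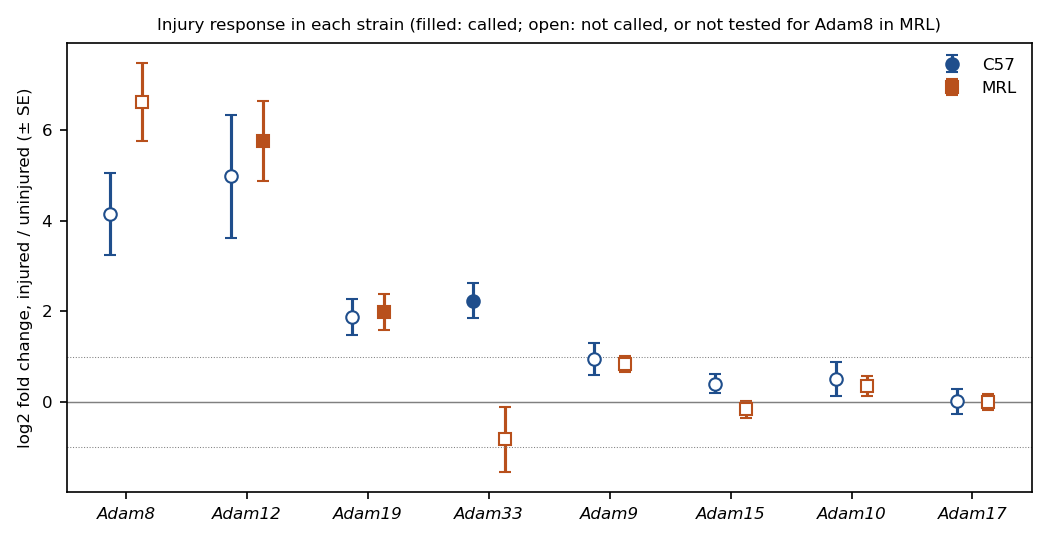
Points give the log2 fold change of injured over uninjured tendon with its SE for each gene in C57 (circles) and MRL (squares), and dotted lines mark log2 fold changes of 1 and -1. Adam33 lies at 2.24 in C57 and at -0.82 in MRL, whereas the strains lie apart by less than the larger of their SEs for Adam9, Adam10, Adam12, Adam17 and Adam19.

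Adam33, an ADAM of smooth muscle and fibroblasts known from airway disease, rose with injury in C57 and was not called in MRL. Uninjured C57 libraries were at 9.13, 8.29, 4.24 and 9.51 CPM and injured ones at 37.1, 35.9, 20.6 and 58.6. Uninjured MRL libraries were at 4.44, 9.23, 9.01 and 4.42 CPM and injured ones at 0.672, 3.36, 9.56 and 1.73. All injured C57 libraries stood above the other 12 libraries, and 3 of 4 injured MRL libraries stood below every uninjured MRL library. The log2 fold change was 2.24 ± 0.39 in C57 (SE, n = 4 per group, edgeR adjusted p = 0.038) and -0.82 ± 0.72 in MRL (edgeR adjusted p = 0.496). After injury the log2 difference of MRL from C57 was -3.34 ± 0.71 (edgeR adjusted p = 0.0311). The test of the difference between the 2 responses gave -3.10 ± 0.85 on the log2 scale with an edgeR adjusted p of 0.333 (unadjusted 0.00223). Over 21 alternatives the adjusted p ran from 0.0256 with DESeq2, where it was called, to 0.509. In the edgeR interaction test 0 of 15947 genes were called and 1939 had an unadjusted p under 0.05, against 221 called by DESeq2.

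In edgeR Adam33's calls were near the threshold. DESeq2 gave an adjusted p of 4.34e-06 in C57 and of 2.33e-05 between the injured strains. The C57 call was lost in 6 of 8 fits that left out 1 library (uninjured replicates 1, 2 and 3, and injured replicates 1, 2 and 4), with adjusted p up to 0.121 and log2 fold changes from 1.99 to 2.32. The call after injury was lost in 5 of 8 such fits (C57 injured replicates 1, 2 and 4, and MRL injured replicates 2 and 4), with adjusted p up to 0.108 and differences from -3.37 to -3.04.

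Markers of adipocytes, vessels and contractile cells were compared with Adam33. The 4 adipocyte markers summed to 10.1 to 52.6 CPM in uninjured and 15 to 134 in injured C57. In MRL they summed to 3.78 to 43.9 and 0 to 59.1. The 5 endothelial markers summed to 15.4 to 71.4 CPM in uninjured and 81.9 to 127 in injured C57, and to 0 to 54.3 and 0.084 to 24.2 in MRL. The 5 markers of myofibroblasts and smooth muscle summed to 29.6 to 528 and 911 to 2020 CPM in C57, and to 30.5 to 114 and 40 to 313 in MRL. Across the 16 libraries the r of log2 levels with Adam33 was 0.78 for adipocyte, 0.76 for endothelial and 0.68 for smooth muscle markers, and on deviations from the group means it was 0.73, 0.57 and 0.39. Adam33 per 1000 CPM of endothelial markers was 252 to 588 in injured C57, within the 128 to 616 of uninjured C57. Per 1000 CPM of smooth muscle markers it was 16.1 to 64.3 in injured and 17.3 to 321 in uninjured C57. In MRL the ratio to smooth muscle markers was 79.1 to 146 in uninjured and 5.51 to 40.1 in injured tendon, without overlap, and lower after injury. The MRL ratio to endothelial markers was 166 to 1600 in the 3 uninjured libraries with a count of those markers. In injured MRL tendon it was 71.3 to 8000. The 8000 rests on a marker sum of 0.084 CPM in replicate 1, below that library's limit of 0.126 CPM, so it carries no information. The part of these cells in the Adam33 values was not tested further. The gene most like Adam33 was the mast cell chymase Cma1 (r = 0.93, and 0.87 on deviations), with the mast cell proteases Mcpt4 (r = 0.90) and Tpsb2 (r = 0.89) among the first 5. These were named after their values were seen. Cma1 was at 5.58 to 117 CPM in injured C57 and at 0 to 16.7 in injured MRL.

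**Figure D4:**
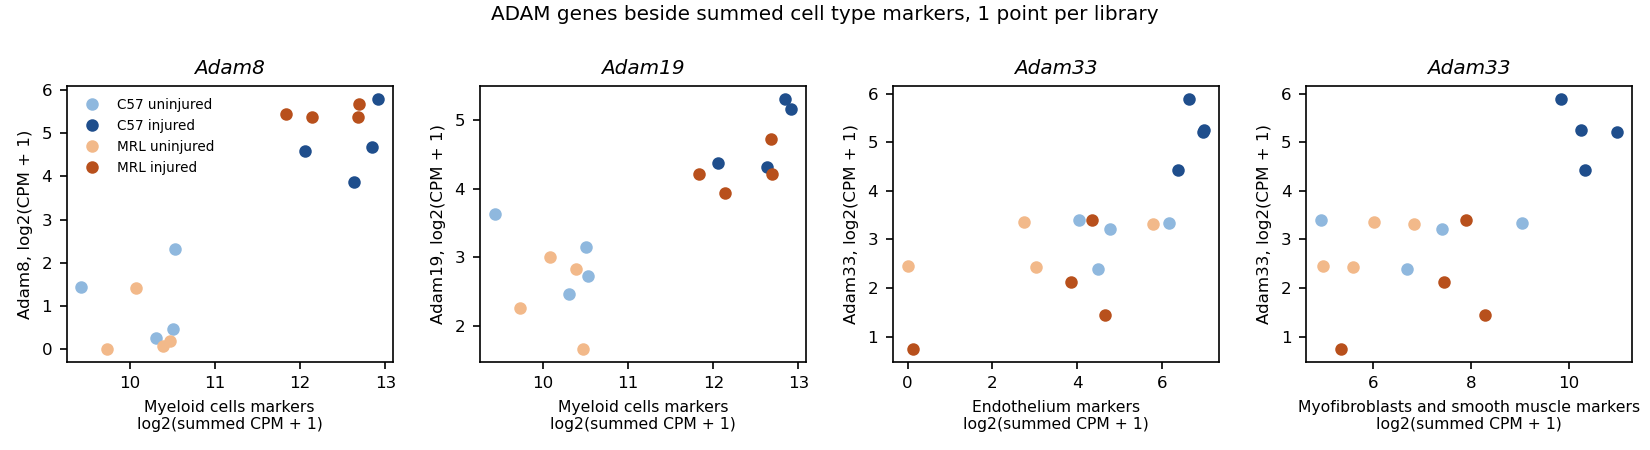
Each point is a library, with the log2 of the summed CPM of a marker list plus 1 on the x axis and the log2 of the CPM of Adam8, Adam19 or Adam33 plus 1 on the y axis, coloured by group. Adam8 and Adam19 separate injured from uninjured libraries together with the myeloid markers (3660 CPM or more in injured libraries), and Adam33 is high in the 4 injured C57 libraries, which also hold the highest endothelial (81.9 CPM or more) and smooth muscle sums (911 CPM or more).

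Adam9 was at 65.3, 85.5, 53.5 and 31 CPM in uninjured and 58.3, 120, 176 and 117 in injured C57, so these groups overlapped. In MRL it was at 52.5, 48.1, 77.2 and 61.2 CPM in uninjured and 120, 108, 102 and 94.5 in injured tendon, with no overlap. The log2 fold change in MRL was 0.84 ± 0.17, with an edgeR adjusted p of 0.0147 (n = 4 per group) but below the fold criterion. In C57 it was 0.95 ± 0.36 (edgeR adjusted p = 0.265). The lowest injured library was replicate 1, with 73000 summed CPM of muscle markers, and replicate 2, with 2160, was at 120 CPM of Adam9. Over the 16 libraries the r of log2 levels with Adam9 was 0.85 for myeloid, 0.84 for osteoclast and 0.1 for fibroblast markers. On deviations from the group means it was 0.67, 0.61 and 0.68. For skeletal muscle markers it was -0.06, and -0.64 on deviations. The part of these cells in the Adam9 values was not tested. Adam9 was the highest of the 8 per kilobase in injured MRL, where its lowest library exceeded the highest of Adam10 by 4.7 CPM per kilobase.

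Adam15 was at 74.4 to 111 CPM in uninjured C57 and at 120, 123, 123 and 166 in injured C57, without overlap. In MRL it was at 78.7 to 112 before and 65.2 to 106 after injury. The log2 fold changes were 0.41 ± 0.20 in C57 (edgeR adjusted p = 0.356) and -0.16 ± 0.18 in MRL (edgeR adjusted p = 0.597), with an interaction of -0.63 ± 0.27 (edgeR adjusted p = 0.377). After injury every MRL library was below every C57 library, which 7.42% of genes also showed, and the log2 difference was -0.66 ± 0.20 with an edgeR adjusted p of 0.0956.

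Adam10 and Adam17 were not called in either strain. Adam10 was at 29.9 to 56.9 CPM in uninjured and 35 to 127 in injured C57, and at 40.7 to 71.9 and 56.3 to 89.8 in MRL. Its log2 fold changes were 0.51 ± 0.37 in C57 (edgeR adjusted p = 0.562) and 0.36 ± 0.22 in MRL (edgeR adjusted p = 0.309). Adam17 was at 56.1 to 81.6 and 38 to 102 CPM in C57, and at 61.2 to 83.6 and 59.6 to 94 in MRL. Its log2 fold changes were 0.02 ± 0.28 and 0.01 ± 0.18. These misses do not show that the levels stayed the same. Adam10 kept r = 0.88 with Adam9 and 0.75 with Adam17 over the 16 libraries on deviations from the group means. On the same deviations the r with skeletal muscle markers was -0.66 for Adam10 and -0.62 for Adam17. With myeloid markers it was 0.54 and 0.63. The part of tissue content in these correlations was not tested.

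Before injury no member passed the edgeR test between the strains. Of the 6 members tested (Adam8 and Adam12 were too low to be kept), 0 were called, 0 had an unadjusted p under 0.05, 0 were called by DESeq2, and 0% of 14055 genes were called, with 1106 genes at an unadjusted p under 0.05 and 103 genes called by DESeq2. Without both uninjured libraries numbered 4, edgeR called 497 of 14274 genes and none of these members. With all libraries the log2 differences of MRL from C57 ran from -0.67 ± 0.51 for Adam19 to 0.21 ± 0.24 for Adam10. After injury 1 of 7 tested members was called, Adam33, against 3.43% of 14626 genes (1.55% higher and 1.88% lower in MRL). For the other members the log2 difference ranged from -0.66 for Adam15 to 0.71 ± 0.68 for Adam12.

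Of 19 regulators of ADAM maturation and activity, 17 were kept in each strain. In C57, 0 of 17 were called by edgeR against 1.07% of all genes. In C57 5 of 17 had an unadjusted p under 0.05 (2204 of all 14424 genes) and DESeq2 called 2 (909 of all 16570 genes). In MRL 5 of 17 were called, 1 higher and 4 lower, against 5.25% of all genes higher and 2.15% lower. The median log2 fold change of the regulators was -0.06 in C57 and -0.13 in MRL, against -0.05 and -0.03 over all genes. The inhibitor Timp1 was at 42.9 to 89.3 CPM in uninjured and 527 to 5080 in injured MRL, a log2 fold change of 4.97 ± 0.76 (edgeR adjusted p = 0.00466), and at 12.6 to 99.9 and 124 to 483 in C57, where it was 2.36 ± 0.62 (edgeR adjusted p = 0.125). Reck, a membrane-anchored protease inhibitor, fell from 120 ± 8.75 to 47.6 ± 8.9 CPM (SD, n = 4) in MRL, a log2 fold change of -1.33 ± 0.16 (edgeR adjusted p = 0.00172), and was at 87.6 ± 26.2 and 41.3 ± 12 in C57, with -1.13 ± 0.28 (edgeR adjusted p = 0.0999). Timp4 fell in MRL, by 3.54 on the log2 scale (edgeR adjusted p = 0.0408). The convertase Pcsk6 fell in MRL, from 166 ± 33.4 to 65 ± 27.1 CPM, and was at 144 ± 14.2 and 162 ± 76.2 in C57. Tspan15, a tetraspanin partner of ADAM10, fell in MRL from 51.2 ± 8.17 to 23.2 ± 9.75 CPM and was called lower in injured MRL than in injured C57 (log2 difference -1.96 ± 0.42, edgeR adjusted p = 0.0311). Timp3, the inhibitor best known to act on ADAM17, had log2 fold changes of -0.66 ± 0.22 in C57 and -0.13 ± 0.32 in MRL, neither called. The iRhom genes Rhbdf1 and Rhbdf2, which carry ADAM17 to the surface, had -0.06 ± 0.20 and -0.27 ± 0.73 in C57, and 0.22 ± 0.25 and 1.45 ± 0.43 in MRL, where Rhbdf2 had an edgeR adjusted p of 0.0532. Furin, the prodomain convertase, was not called in either strain. The remaining regulators, Frmd8, Pcsk5, Pcsk7, Tspan5, Tspan14, Tspan17, Timp2 and Sfrp1, were not called in either strain, and Tspan10 and Tspan33 were too low to be tested within either strain. The edgeR interaction test called 0 of 18 regulators, with 3 at an unadjusted p under 0.05 (1939 of all 15947 genes). With 1 library left out the MRL count was 3 in 6 of 8 fits and 4 without MRL uninjured replicate 3 or MRL injured replicate 3, and the C57 count was 2 without C57 uninjured replicate 4.

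**Figure D5:**
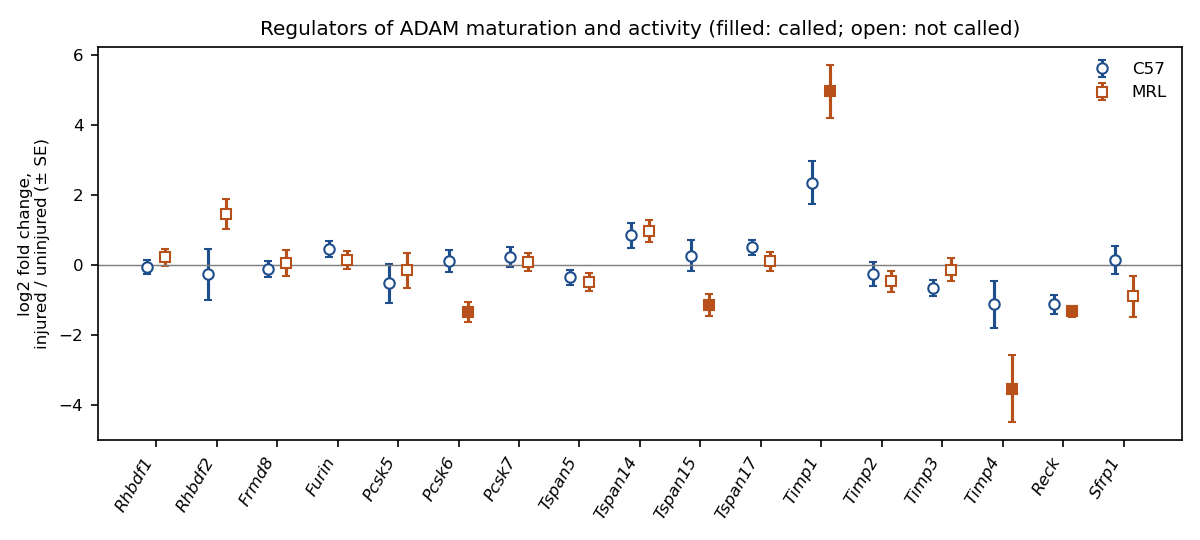
Points give the log2 fold change of injured over uninjured tendon with its SE for the 17 regulators tested, in C57 (circles) and MRL (squares), filled where called. Timp1 lies highest, at 2.36 in C57 and 4.97 in MRL, and the 4 filled points below 0 are Pcsk6, Tspan15, Timp4 and Reck in MRL.

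Of 49 substrates of ADAM proteins and receptors that they feed, 42 were tested in C57, and 3 were called, all higher, against 0.908% of all genes higher. In MRL 9 of 40 were called, all higher, against 5.25% of all genes. The median log2 fold change was 0.23 in C57 and 0.16 in MRL, against -0.05 and -0.03 over all genes. The C57 count was 7 without uninjured replicate 4, 2 without injured replicate 1 and 0 in the other 6 fits that left out 1 library. The genes called in both strains were 3, namely Selplg (PSGL-1, a selectin ligand of leukocytes and a known Adam8 substrate), Vcam1 (a leukocyte adhesion molecule) and Tnfrsf1b (TNF receptor 2). Selplg was at 4.09 to 15.3 and 45.9 to 60.8 CPM in C57, and at 7.36 to 8.8 and 30.1 to 59.1 in MRL, with log2 fold changes of 2.56 ± 0.39 and 2.41 ± 0.24 (edgeR adjusted p = 0.0246 and 0.001). Vcam1 rose by log2 fold changes of 3.14 ± 0.46 and 3.04 ± 0.67, and Tnfrsf1b by 1.49 ± 0.28 and 1.48 ± 0.36. Of the 10 myeloid markers 6 were called higher in C57 and 9 in MRL. The part of myeloid cells in the substrate values was not tested.

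Of the 7 ligands of the EGF receptor listed, 5 were tested, with 0 called in C57 by edgeR (3 at an unadjusted p under 0.05, as had 2204 of all 14424 genes) and 2 called higher in MRL, against 5.25% of all genes. Hbegf, an EGF receptor ligand shed by Adam12 and Adam17, rose in MRL by a log2 fold change of 1.51 ± 0.33 (edgeR adjusted p = 0.0171) and was 1.11 ± 0.46 in C57 (edgeR adjusted p = 0.296). Ereg rose in MRL by 2.88 ± 0.55 (edgeR adjusted p = 0.00976) and was at -2.25 ± 1.28 in C57. Its uninjured C57 libraries ranged up to 92.5 CPM (mean 26.5, SD 44.1). Tgfa was at -1.53 ± 0.52 in C57 and -0.87 ± 0.38 in MRL, not called in either. Btc was at -4.08 ± 1.49 in C57, where uninjured libraries ranged from 1.68 to 82.5 CPM (mean 22.7, SD 39.9), and at -1.03 ± 0.70 in MRL. For both Ereg and Btc the highest uninjured C57 library held most of the group's summed level. The C57 fold changes of these genes, and the Ereg interaction, therefore rest largely on a single library each. Egf was at 0.83 ± 1.41 and 0.81 ± 1.03. Neither Btc nor Egf was called in either strain, and Areg and Epgn were too low to be tested within a strain. The edgeR interaction test called 0 of these ligands, with Ereg at an adjusted p of 0.333 (unadjusted 0.00519), Epgn at 0.339 (unadjusted 0.00669) and Hbegf at 0.873. Egfr itself was at 27.3 to 52.6 CPM in uninjured and 42.4 to 118 in injured C57, and at 15.6 to 38.2 and 22.9 to 36.1 in MRL. It was lower in injured MRL than in injured C57 (log2 difference -1.69 ± 0.29, edgeR adjusted p = 0.0136). Tnf, the substrate that named the TNF-converting enzyme, was at 0 to 3.7 CPM in the other 3 groups and 1.09 to 10.2 in injured MRL, and was not called in either strain. Notch1 had log2 fold changes of -0.77 ± 0.95 in C57 and 0.03 ± 1.18 in MRL, and Il6ra, shed by Adam10 and Adam17, -0.03 ± 0.34 and -0.14 ± 0.41. Il6ra was lower in injured MRL than in injured C57 (-1.32 ± 0.28, edgeR adjusted p = 0.0284).

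The other substrates called in MRL were the membrane chemokines Cxcl16 (log2 fold change 1.91 ± 0.37) and Cx3cl1 (1.43 ± 0.37), the hyaluronan receptor Cd44 (1.14 ± 0.22) and the myeloid receptor Trem2 (2.06 ± 0.32). In C57 their log2 fold changes were 1.26 ± 0.40, -0.38 ± 0.46, 0.58 ± 0.35 and 2.17 ± 0.50, none called. The edgeR interaction test called 0 of 46 substrates, with 8 at an unadjusted p under 0.05 (1939 of all 15947 genes), so none of these differences between the strains passed the threshold.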

How the data were processed

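Flexor tendon RNA was sequenced in 16 libraries as single-end reads of 100 nt. Per the labels, the authors trimmed reads with Trimmomatic 0.36, aligned them with STAR 2.5.2b to GRCm38.p5, counted them with Subread 1.5.0p3 (featureCounts) and used DESeq2 1.14.1. The table they deposited holds unnormalised counts of 49568 genes by symbol, 1 column a library. The gene models used for counting are not given in the sources used here, nor is strandedness. The labels name a library kit for 100 ng of RNA and the methods describe pre-amplification of 1 ng, and neither names molecular identifiers. If pre-amplified, counting error understates technical error. Per the methods each RNA came from 1 tendon, with 4 animals in each group.

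The counts were tested with edgeR 4.0.16 in R 4.3.3 (limma 3.58.1). Each comparison was fitted on its own libraries, and the interaction of strain and injury on all 16. Low genes were dropped with filterByExpr, libraries were scaled by TMM, and genes were tested by the robust quasi-likelihood test, with Benjamini-Hochberg adjustment over all genes tested. A call needed an adjusted p below 0.05 and a log2 fold change beyond 1 in size (for the interaction, the adjusted p alone). CPM used TMM-adjusted library sizes, log2 CPM a prior count of 2, and lengths the union of GENCODE M21 exons. Alternatives were DESeq2 1.42.0, upper-quartile and RLE factors, no filter, leaving out each library, leaving out both uninjured libraries numbered 4, the replicate block, coding length and deviations from group means. The test was checked on simulated data.

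Named were all 8 members, all regulators, the 8 substrates with the largest change among those called in each strain plus 7 fixed substrates, other ADAM genes above 1 CPM in at least 4 libraries, and the 5 genes most like Adam8 and Adam12. Named outside this rule, after their values were seen, were Cd44, Btc, Egf, Areg, Epgn, Met, Notch3, Csf1r and the genes most like Adam19 and Adam33. The members and lists were chosen with earlier results of these data known.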

Additional observations from a re-analysis of the deposited data

Results flagged for a closer look

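Over 32 groups of 4 libraries (8 genes in 4 groups), 3 held a library whose gap to the nearest other exceeded Dixon's 95% critical value for 4 samples, as a share of the group's range, and chance alone flags about 1 in 20 groups. Adam8 was at 1.69 CPM in uninjured MRL replicate 4, against 0.144 CPM in the nearest library (gap over range 0.915). Adam12 was at 1.77 CPM in uninjured C57 replicate 3, against 0.13 CPM in the nearest (0.927). Adam15 was at 166 CPM in injured C57 replicate 4, against 123 CPM in the nearest (0.925), and without it the C57 log2 fold change of Adam15 was 0.32.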

How the results depend on the processing

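Of the fold changes of members recomputed under the alternatives, 471 kept their direction and side of the threshold, 12 lost a call, 5 gained one, 4 untested values moved and 48 changed sign. The sign changes were all in differences that were smaller than their SE with all libraries. With DESeq2 the calls in C57 were 4 members, 2 regulators and 9 substrates, and the interaction called 1 member (Adam33, log2 -3.12). Without the filter 0 members were called between injured strains (Adam33 at -3.32, adjusted p = 0.0991). Leaving out 1 library gave 0 to 2 members, 0 to 2 regulators and 0 to 7 substrates in C57, 2 members, 3 to 4 regulators and 6 to 9 substrates in MRL, 0 to 1 member between injured strains, and 0 members before injury and in the interaction. Over all genes DESeq2 called 909 in C57 (edgeR 155), 1808 in MRL (1057), 1473 between injured strains (502), 103 before injury (0) and 221 in the interaction (0), and leaving out 1 library gave 10 to 750 in C57 and 689 to 1260 in MRL. Without both uninjured libraries numbered 4, edgeR called 497 genes before injury. The causes were not tested.

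For Adam17, leaving out 1 library gave -0.14 to 0.26 (log2 fold change) in C57, and -0.15 to 0.1 in MRL, where upper-quartile factors gave -0.02. Interactions ran from -0.4 to 0.09 for Adam9, -0.42 to 0.26 for Adam10, -2.03 to 1.67 for Adam12, -0.28 to 0.13 for Adam17 and -0.25 to 0.29 for Adam19. Without both uninjured libraries numbered 4 the interactions were 0.05 for Adam9, 0.03 for Adam17, -0.01 for Adam19 and 4.94 for Adam8 (2.37 ± 1.31 with all libraries), and the uninjured differences were -0.21 for Adam9, 0.05 for Adam15, -0.01 for Adam17 and 0.05 for Adam33. Uninjured differences with 1 library left out ran from -0.2 to 0.24 for Adam9 (0 with RLE factors) and -0.13 to 0.07 for Adam15 (0.01 with upper-quartile factors and 0.01 without a filter). Injured differences ran from -0.38 to 0.08 for Adam9, -0.2 to 0.46 for Adam10 and -0.19 to 0.21 for Adam17.

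Same-numbered uninjured libraries did not deviate together (correlations -0.26, 0.02, -0.1 and -0.23 for numbers 1 to 4), so the numbers were not taken to pair animals. The replicate block gave 0 members called before injury, as did the fit without it, and the labels of the injured libraries carry no replicate numbers to pair. Depth limited Adam8 and Adam12 in uninjured tendon, where single libraries held 0 to 52 counts.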

Other observations

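Of 25 other ADAM genes, 11 had no count in any library and 4 were above 1 CPM in at least 4 libraries. Adam22, an ADAM without protease activity known from synapses, was at 0.447 to 11.7 CPM in uninjured and 2.63 to 5.1 in injured C57, and at 1.01 to 6.63 and 0.223 to 7.57 in MRL. Adam23, of the same noncatalytic class, was at 0 to 1.3 and 0 to 6.1 CPM in C57, and at 0.216 to 5.61 and 0.0453 to 6.74 in MRL. Adam11 was at 1.61 to 5.37 CPM in uninjured and 0 to 2.02 in injured MRL, and at 0 to 5.24 and 0 to 2.2 in C57. Adam30, known from testis, was at 0 to 1.95 CPM in uninjured MRL and listed at 0 in the 4 injured MRL libraries. The groups of these 4 genes overlapped in both strains.

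Named after their values were seen, Met was higher (log2 difference 1.46 ± 0.32, edgeR adjusted p = 0.0355) and Notch3 (-3.24 ± 0.66, edgeR adjusted p = 0.0272) and Csf1r (-1.39 ± 0.29, edgeR adjusted p = 0.0273) were lower in injured MRL than in injured C57 tendon. Of 43 substrates tested in that comparison, 1 was called higher (Met) and 4 lower (Notch3, Csf1r, Egfr and Il6ra), against 1.55% and 1.88% of all genes. Met is the receptor of hepatocyte growth factor, Csf1r that of macrophage growth factors, and Notch3 a receptor of smooth muscle and pericytes. The smooth muscle marker sum was 911 to 2020 CPM in injured C57 and 40 to 313 in injured MRL, and its part in the Notch3 values was not tested. The genes most like Adam19 over the 16 libraries, named after their values were seen, were the myeloid receptor Csf2ra (r = 0.95), the chemokine Ccl8 (r = 0.94) and Fam49b, the transcription factor Irf5 and the protease Ctsc (r = 0.93 each).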
